A study of Homo sapiens with 4 samples.

Results

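The alpha- and beta-tubulin isotypes described here are 10 genes, named by symbol, out of 28729 genes in the table. They are 4 for alpha-tubulin (TUBA1A, TUBA1B, TUBA1C and TUBA4A) and 6 for beta-tubulin (TUBB, TUBB2A, TUBB2B, TUBB3, TUBB4B and TUBB6). They were chosen with earlier results of these data known. RNA was sequenced from TU-177, an established human laryngeal squamous cell carcinoma (LSCC) line grown in DMEM with fetal bovine serum. There were 2 libraries of cells that carried a negative control shRNA (NC) and 2 of cells that carried an shRNA against SKA3 (SKA3-KD), both delivered by lentivirus and both followed by puromycin, so that transduction and drug selection were common to all 4 libraries. The labels do not say how many shRNA sequences were used, whether the cells were clonal, or whether the 2 libraries of a group came from separate cultures. The p-values below therefore rest on the spread between libraries of this kind, which may not be that between separate cultures. SKA3 is a subunit of the SKA complex, which holds kinetochores to spindle microtubules, and the comparison asks which transcripts differ when its level is low.

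Microtubules are hollow polymers of heterodimers of 1 alpha- and 1 beta-tubulin. Humans carry several genes for each, and the proteins they encode differ mainly at the carboxy-terminal tail, which lies on the outside of the microtubule and takes up glutamate chains and other modifications. Dividing cells rely on broadly expressed isotypes, whereas TUBB3 and TUBB2B are best known from neurons. Tubulin mRNAs are also degraded when free heterodimers accumulate: the factor TTC5 recognises the start of the nascent tubulin chain and brings in the CCR4-NOT deadenylase.

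By Ensembl identifier the members lie on GRCh38 as follows. The alpha genes were TUBA1A (ENSG00000167552) at chr12:49184796-49189324 on the minus strand, TUBA1B (ENSG00000123416) at chr12:49127782-49131397 on the minus strand, TUBA1C (ENSG00000167553) at chr12:49188736-49274603 on the plus strand and TUBA4A (ENSG00000127824) at chr2:219249711-219278170 on the minus strand. The 3 TUBA1 genes neighbour each other, and TUBA1C overlaps the start of TUBA1A on the opposite strand. The beta genes were TUBB (ENSG00000196230) at chr6:30720201-30725426 on the plus strand, TUBB2A (ENSG00000137267) at chr6:3153669-3157526 on the minus strand, TUBB2B (ENSG00000137285) at chr6:3224261-3231730 on the minus strand. Further beta genes were TUBB3 (ENSG00000258947) at chr16:89921392-89938761 on the plus strand, TUBB4B (ENSG00000188229) at chr9:137241213-137243707 on the plus strand and TUBB6 (ENSG00000176014) at chr18:12307669-12344320 on the plus strand. TUBB2A and TUBB2B are neighbours of the same orientation.

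The coding ends are shown because they tell most of the isotypes apart. Below are the last 60 bases of the coding sequence with the stop codon for TUBA4A and the 6 beta isotypes, 5′ to 3′, read from GENCODE 29 on GRCh38, with the glutamate codons GAA and GAG in capitals.
TUBA4A, chr2:219250352-219250411, minus strand: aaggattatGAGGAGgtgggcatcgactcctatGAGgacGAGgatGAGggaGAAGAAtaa
TUBB, chr6:30724338-30724397, plus strand: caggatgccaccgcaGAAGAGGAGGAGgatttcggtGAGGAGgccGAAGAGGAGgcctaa
TUBB2A, chr6:3153863-3153922, minus strand: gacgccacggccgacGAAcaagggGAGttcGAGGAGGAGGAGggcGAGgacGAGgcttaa
TUBB2B, chr6:3224751-3224810, minus strand: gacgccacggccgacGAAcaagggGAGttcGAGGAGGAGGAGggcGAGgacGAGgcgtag
TUBB3, chr16:89935745-89935804, plus strand: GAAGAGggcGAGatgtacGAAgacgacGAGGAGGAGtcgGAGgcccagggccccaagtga
TUBB4B, chr9:137243497-137243556, plus strand: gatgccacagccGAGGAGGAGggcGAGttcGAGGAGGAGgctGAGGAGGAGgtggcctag
TUBB6, chr18:12326071-12326130, plus strand: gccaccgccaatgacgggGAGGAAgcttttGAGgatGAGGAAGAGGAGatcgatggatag
The tails of TUBB2A and TUBB2B differed at 2 bases, in the last sense codon (gct and gcg, both for alanine) and in the stop codon. These coding ends of TUBB2A and TUBB2B therefore encode the same residues. TUBB and TUBB4B, the most abundant pair, differed at 27. The tail of TUBA4A held 7 glutamate codons and the beta tails 7 to 10, the most in TUBB4B. The last sense codon of TUBA4A was itself a glutamate codon.

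The coding starts are shown because they encode the part of the nascent chain that the decay of tubulin mRNAs reads. The first 12 bases were the same in 3 alpha isotypes and differed in TUBA4A, with the fourth codon in capitals. An intron divides these bases in the alpha genes.
TUBA1A, TUBA1B and TUBA1C: atgcgtgagTGC
TUBA4A: atgcgtgaaTGC
TUBB and TUBB4B: atgagggaaATC
TUBB3 and TUBB6: atgagggagATC
TUBB2A: atgcgcgagATC
TUBB2B: atgcgtgagATC
The fourth codon was TGC in each alpha isotype and ATC in each beta isotype.

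The same likeness limits how well reads can be given to 1 isotype. Over their whole coding sequences TUBA1A and TUBA1B were 97.2% identical, TUBA1B and TUBA1C 96.8%, and TUBB2A and TUBB2B 98.1%, while TUBA4A matched the other alpha isotypes at 84.4% to 85.7% and TUBB4B matched TUBB at 84.4%. Each transcript was also divided into all its windows of 100 bases, and the windows found letter for letter in an annotated transcript of another gene were counted. TUBB6 had none (0%) and TUBB4B 4.49%. TUBB had 20.4%, TUBA1A 26.6%, TUBA4A 27.4% and TUBA1C 29.6%. TUBB2B had 46.2%, TUBB2A 56.4%, TUBA1B 71.1% and TUBB3 89.0%. In TUBA4A every such window lay in STK16 or TUBA4B, which overlap it, and in TUBB3 all lay in AC092143.1, a gene model over the same locus. The read length, the strand setting and the handling of reads with several matches are not given in the sources used here. The values of every member but TUBA4A may therefore hold reads of a like gene elsewhere. With such genes TUBB4B shared 2.86% of these windows, TUBB 5.10% and TUBB3 5.15%. TUBA4A and TUBB6 shared none (0%) with a gene elsewhere, and the others 9.89% to 56.4%. With windows of 50 bases TUBB6 shared 0.993% with genes elsewhere, and TUBA4A again none (0%). Every member but TUBB2A, TUBB2B and TUBB6 may hold reads of a gene that overlaps it (FAM166A in TUBB4B).

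**Figure D1:**
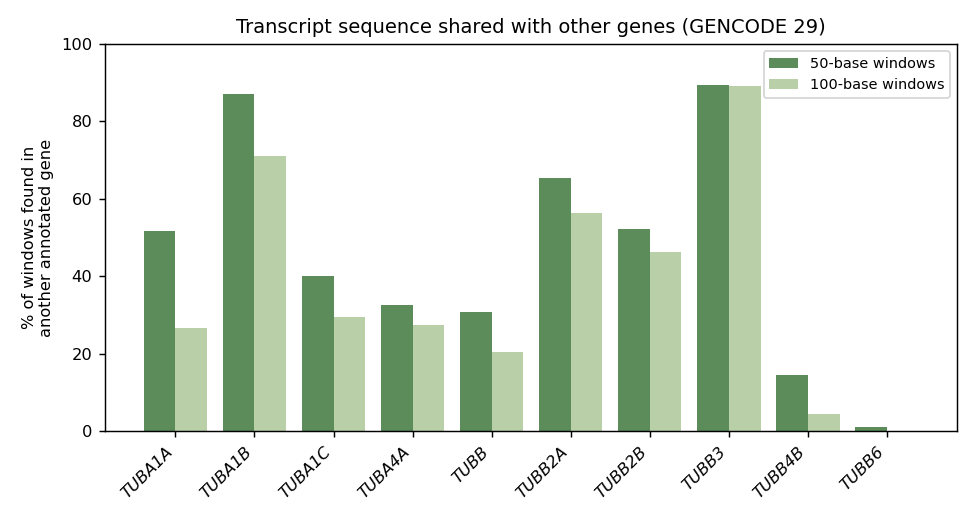
Share of each isotype's transcript windows, in %, that also occur in a transcript of another annotated gene, for windows of 50 bases (dark) and 100 bases (light). TUBB6 and TUBB4B stand lowest, at 0.993% and 14.6% with 50 bases, and TUBB3 and TUBA1B highest, at 89.4% and 87.1%.

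The library sizes recovered from the steps of the values were 9015056 to 11966130 reads. The recovered reads over all genes came to 9906837 to 13287280, more than the library size in each library. Whether reads were counted for more than 1 gene was not tested. The values are FPKM, fragments divided by gene length and by the number mapped in each library, computed by the authors. Levels of different genes can be set side by side only under the gene lengths used. For TUBA1B the recovered length was 3574 bases, against 1627 for the transcript whose coding start is shown. For TUBA1C these were 3359 and 3001 bases, and for TUBB3 6137 and 1769 bases. The order of the isotypes and the ratio of beta to alpha depend on these lengths. SKA3, the targeted gene, stood at 9.40 and 9.64 FPKM in the NC libraries against 3.77 and 4.12 in the SKA3-KD libraries, 41.4% of the NC mean, as the labels have it (log2 fold change -1.09, limma adjusted p = 0.00806, and 0.0689 without NC 1). Of 9 markers of squamous epithelium, SFN (133 to 155 FPKM), DSP (65.8 to 68.7) and KRT17 (29.4 to 49.1) were present, and the other 6, TP63, CDH1, KRT5, KRT14, KRT6A and PKP1, stayed at or below 0.580 FPKM in every library. The label of squamous carcinoma cells is that of the cell line, and only 3 of the 9 markers were present here. Of 8 fibroblast markers, 7 had a row, and their summed FPKM was 15.4 to 15.8 in NC and 8.89 to 9.59 in SKA3-KD. Decorin (DCN) fell by 1.46 on the log2 scale (adjusted p = 0.0065, limma). COL1A1 was lower without overlap, at 3.22 and 3.99 FPKM in NC and 2.71 and 2.66 in SKA3-KD. Its log2 fold change was -0.32 (limma adjusted p = 0.140). COL3A1 (29 to 65 reads a library), LUM (0 to 6) and THY1 (2 to 3) were also lower without overlap, at or below 0.797 FPKM. COL1A2 overlapped and, like THY1, stayed at or below 0.0562 FPKM. PDGFRB alone was higher without overlap, at 2.88 and 2.46 in NC against 3.19 and 4.13 in SKA3-KD. Its log2 fold change was 0.34 (limma adjusted p = 0.165). By limma voom 1 marker of the list was called higher and 2 lower. KRT17 fell by 0.53 (adjusted p = 0.0396, limma). Whether these markers have a part in the tubulin values was not tested. No leukocyte marker with a row exceeded 0.131 FPKM. In bulk RNA, fewer cells of a type and less RNA per cell cannot be told apart.

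Under the gene lengths used, tubulin mRNA in these cells was mostly beta, and mostly from 2 genes. TUBB, the main beta-tubulin of dividing cells, was at 353 and 334 FPKM in the NC libraries and at 371 and 358 in the knockdown. TUBB4B, a beta-tubulin of many tissues and of cilia, was at 292 in both NC libraries and at 342 and 353 in the knockdown. Within each group TUBB was above TUBB4B, but over all 4 libraries their ranges overlapped. TUBA1C came next, with 72.9 and 75.1 in NC and 78.5 and 75.6 in SKA3-KD. TUBA1B, TUBA4A and TUBB6 lay between 38.0 and 57.6. Within NC these stood in the order given with no overlap, and within SKA3-KD TUBA1B overlapped TUBA4A, and TUBA4A overlapped TUBB6. TUBA1A, known for its high level in developing neurons, lay at 18.3 to 22.9, and TUBB2A at 9.39 to 13.5. Each member from TUBB to TUBB2A rested on at least 152 reads in every library.

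TUBB3 and TUBB2B were near the floor under the gene lengths used. TUBB3 had an FPKM of 0.395 and 0.416 in NC and 0.448 and 0.456 in SKA3-KD, on 23 to 33 reads a library. TUBB2B had 0.609 and 0.202 in NC and 0.269 and 0.386 in SKA3-KD, on 4 to 16 reads. The ranges of both genes overlapped in NC. Of the neuron markers, 4 had a row (MAP2, SYP, RBFOX3 and SNAP25), and none exceeded 0.472 FPKM.

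The remaining alpha- and beta-tubulin genes with a row were as low. TUBA3D, TUBA3E, TUBA4B, TUBA8, TUBAL3, TUBB1, TUBB4A and TUBB8B reached at most 0.868 FPKM, in TUBB4A. TUBB1, the isotype of platelets, was listed at 0.335 and 0.317 in NC and 0.112 and 0.121 in SKA3-KD, on 4 to 14 reads a library. Rows of 15 tubulin pseudogenes were present, and none exceeded 1.23 FPKM or 43 reads in a library, the highest being TUBA5P.

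**Figure D2:**
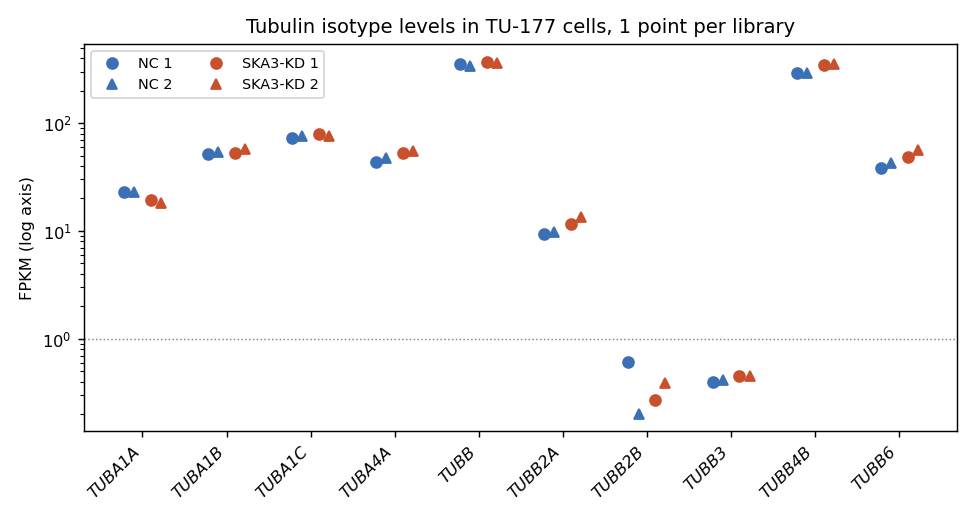
FPKM of the 10 isotypes on a log axis, with 1 point per library: circles are replicate 1 and triangles replicate 2, NC in blue and SKA3-KD in orange. The dotted line marks the FPKM of 1 used as the lower limit for testing: TUBB and TUBB4B lie between 292 and 371, and TUBB2B and TUBB3 lie below the line in every library.

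The limma test was run on log2(FPKM + 1) for genes whose mean over the 4 libraries reached 1 FPKM, which kept 12645 genes and 8 of the 10 isotypes. TUBB2B and TUBB3 did not reach this limit under the gene lengths used. A gene passed the test at a Benjamini-Hochberg adjusted p under 0.05 over all genes tested. On this scale 6.16% of all genes passed as higher in SKA3-KD and 6.11% as lower. TUBB4B was the member that passed, so 1 of 8 was higher. No member passed as lower in this fit, although TUBA1A had an unadjusted p under 0.05. TUBA1A was called lower in several other settings given below, both by limma and by limma voom. At an unadjusted p under 0.05 there were 5 members, 4 higher and 1 lower, beside 31.3% of all genes. The median log2 fold change of the 8 was 0.16, against 0.01 over all genes.

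TUBB4B rose in SKA3-KD. It went from 292 ± 0.477 FPKM (SD, n = 2) with the control shRNA to 347 ± 7.20 FPKM (SD, n = 2) with the SKA3 shRNA, so that both SKA3-KD libraries lay above both NC libraries. The mean was 18.9% higher and the log2 fold change was 0.25 ± 0.05 (SE, limma adjusted p = 0.0410). The values rest on 7371 and 5566 reads of the NC libraries and on 7355 and 8776 of the knockdown libraries. The change in TUBB4B lost its call when any 1 library was left out (adjusted p = 0.124 to 0.203, limma), without the filter on low values (0.156) and without the mean-variance trend (0.103), with a log2 fold change from 0.23 to 0.27 in those fits.

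The other 3 beta isotypes tested were higher in both SKA3-KD libraries without passing. TUBB6, a beta-tubulin of many non-neuronal tissues, stood at 38.0 and 42.8 FPKM in the NC libraries and at 48.4 and 55.9 in the knockdown. The groups did not overlap, and the log2 fold change was 0.36 ± 0.10 (SE, limma adjusted p = 0.0781). TUBB2A had 9.39 and 9.76 in NC and 11.5 and 13.5 in SKA3-KD. The log2 fold change of TUBB2A was 0.35 ± 0.09 (SE, limma adjusted p = 0.0684), again with no overlap between the groups. TUBB averaged 344 ± 12.9 FPKM (SD, n = 2) with the control shRNA and 365 ± 9.41 FPKM (SD, n = 2) with the SKA3 shRNA. The lowest SKA3-KD library was just above the highest NC library, and the log2 fold change was 0.09 ± 0.06 (SE, limma adjusted p = 0.358).

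No alpha isotype passed the limma test described above. TUBA1A stood at 22.8 and 22.9 FPKM in the NC libraries and at 19.2 and 18.3 in the knockdown, so that both SKA3-KD libraries were below both NC libraries. Its SKA3-KD mean was 82.2% of the NC mean, with a log2 fold change of -0.27 ± 0.06 (SE, limma adjusted p = 0.0517). TUBA4A, which is abundant in muscle, brain and platelets, had 43.8 and 47.9 in NC and 52.8 and 54.6 in SKA3-KD. The log2 fold change of TUBA4A was 0.22 ± 0.07 (SE, limma adjusted p = 0.0966), and its groups did not overlap. TUBA1B was 51.4 and 54.0 in NC and 53.3 and 57.6 in SKA3-KD, and the groups overlapped (log2 fold change 0.07 ± 0.07 SE, limma adjusted p = 0.511). TUBA1C averaged 74.0 ± 1.50 FPKM (SD, n = 2) with the control shRNA and 77.0 ± 2.07 FPKM (SD, n = 2) with the SKA3 shRNA, a log2 fold change of 0.06 ± 0.06 (SE, limma adjusted p = 0.528).

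Across the 8 isotypes tested, 6 had both SKA3-KD libraries above both NC libraries and 1 had them below. Over all genes tested these shares were 32.3% and 29.2%. With 2 libraries a group, the smallest p of an exact permutation test (two-sided) is 0.333, so that test cannot call a single gene here. The limma p-values also draw on the spread of the other genes. With 1 library left out, the log2 fold change of TUBA1B ranged from 0.02 to 0.12, that of TUBB from 0.05 to 0.12 and that of TUBA1C from 0.03 to 0.08.

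**Figure D3:**
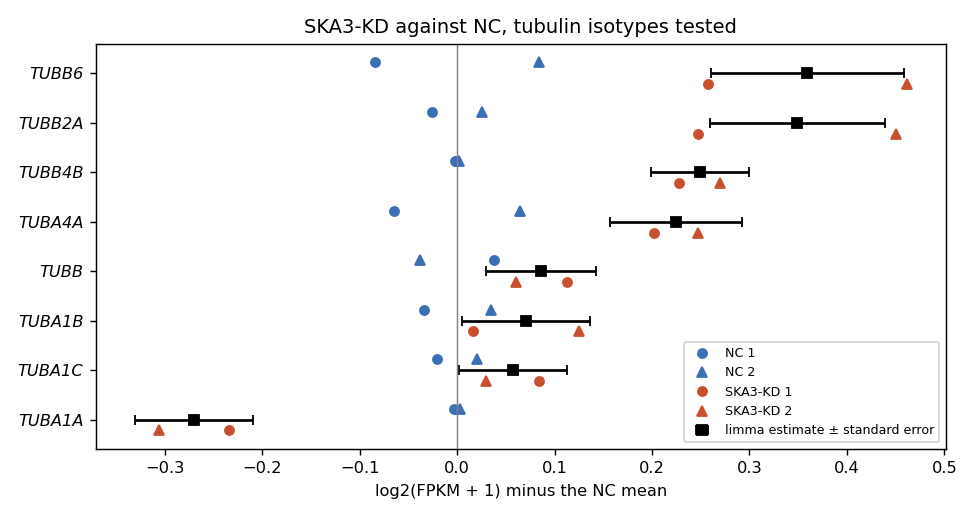
Each library's log2(FPKM + 1) minus the NC mean of that gene for the 8 isotypes tested (circles and triangles as replicates 1 and 2, NC in blue, SKA3-KD in orange), with the limma log2 fold change and its standard error as a black square and bar. TUBB6, TUBB2A, TUBB4B and TUBA4A lie to the right at 0.36 to 0.22, TUBB, TUBA1B and TUBA1C lie near 0, and TUBA1A lies to the left at -0.27.

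How many isotypes passed differed between settings, while no tested member changed sign. Quantile normalization passed 723 genes as higher and 745 as lower. Among these were TUBB4B as higher and TUBA1A as lower (adjusted p = 0.0167 and 0.0471, limma). With only genes of a mean FPKM of at least 5, 13.6% of genes passed as higher and 12.1% as lower, and TUBB4B, TUBB6 and TUBB2A passed as higher and TUBA1A as lower (adjusted p = 0.0234, 0.0319, 0.0325 and 0.0286, limma). With limma voom on the recovered reads, 12.6% passed as higher and 12.8% as lower, and TUBA4A joined the same 3 higher members (adjusted p = 0.0343), with TUBA1A lower (adjusted p = 0.0135).

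Of the 2 members under the limit, TUBB3 drew 52 reads over the NC libraries together and 61 over the SKA3-KD libraries, a ratio of reads per library size of 1.12 (exact 95% interval 0.761 to 1.65). TUBB2B drew 20 and 16 reads, a ratio of 0.764 (0.370 to 1.55). These intervals cover counting error only. The reads of TUBB3, and likewise those of TUBA1C, were recovered with a whole length other than that of GENCODE 29, a looser criterion. Both intervals include equal rates, so neither a rise nor a fall of TUBB3 or TUBB2B could be told at this depth, even with counting error alone.

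The make-up of the 2 families followed from these values. In the alpha family TUBA1A was 11.9% and 11.4% of the summed FPKM in NC and 9.44% and 8.87% in SKA3-KD. TUBA4A was 22.9% and 24.0% in NC and 25.9% and 26.5% in SKA3-KD. TUBA1C was the largest share in every library under the gene lengths used, at 36.7% to 38.5%. TUBA1B was at 26.2% to 27.9%, and both overlapped between the groups. Within each library the ratio of TUBA4A to TUBA1A, which does not depend on library scaling, was 1.92 and 2.10 in NC and 2.75 and 2.99 in SKA3-KD. This pair sets the alpha isotype that rose most over the only one that fell, so the separation of the ratio follows from that choice.

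In the beta family TUBB was 50.9% and 49.2% of the sum in NC and 48.0% and 45.9% in SKA3-KD, and TUBB4B was 42.1% and 43.0% in NC and 44.2% and 45.2% in SKA3-KD. The ratio of TUBB4B to TUBB was 0.827 and 0.875 in NC and 0.922 and 0.985 in SKA3-KD, with no overlap. This pair sets the member that passed over the tested beta isotype that rose least. TUBB6 took 5.48% and 6.29% in NC and 6.25% and 7.16% in SKA3-KD, which overlapped. TUBB2A took 1.36% to 1.72%, and TUBB3 and TUBB2B at most 0.0880% each.

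The alpha isotypes summed to 195 ± 6.33 FPKM (SD, n = 2) with the control shRNA and 205 ± 1.46 FPKM (SD, n = 2) with the SKA3 shRNA. The beta isotypes summed to 686 ± 9.03 FPKM (SD, n = 2) and 777 ± 4.52 FPKM (SD, n = 2), respectively. Neither pair of ranges overlapped. The beta sum was 3.63 and 3.40 times the alpha sum in NC and 3.80 and 3.79 times in SKA3-KD. These ratios compare levels per length under the gene models of the authors, and no test was run on the sums.

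**Figure D4:**
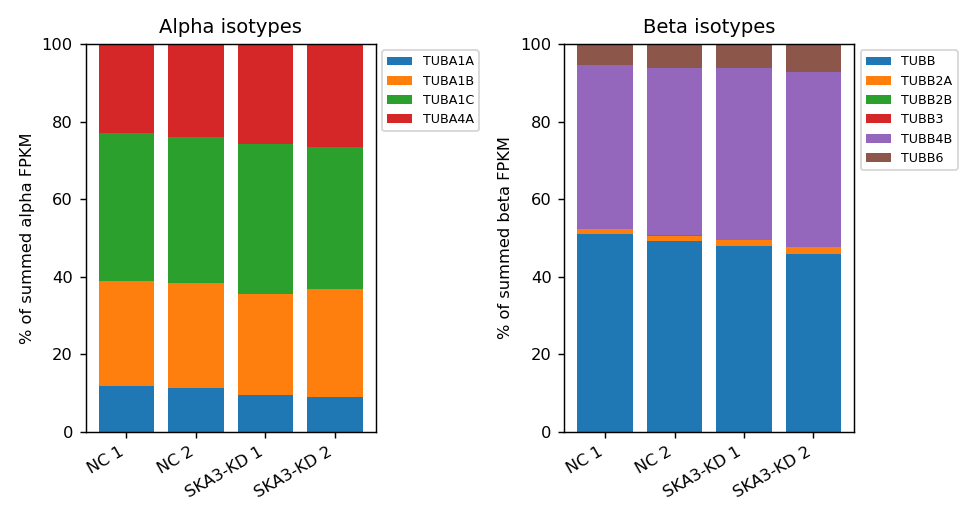
Share of each isotype in the summed FPKM of the alpha family (left) and of the beta family (right), in %, with 1 bar per library. TUBA1A takes 11.9% and 11.4% in NC and 9.44% and 8.87% in SKA3-KD, and TUBB and TUBB4B fill most of the beta bars, with TUBB4B at 42.1% and 43.0% in NC and 44.2% and 45.2% in SKA3-KD.

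Genes that make, fold, modify or degrade tubulin were described from lists. The CCT chaperonin, the ring that folds newly made tubulin and actin, had all 8 subunits tested. CCT4 and CCT7 rose and CCT3 and CCT5 fell, and 4 subunits did not pass, beside 6.16% of all genes higher and 6.11% lower. At an unadjusted p under 0.05 there were 5 higher and 2 lower, and by limma voom 4 and 2. Over all genes 31.3% had an unadjusted p under 0.05, and limma voom passed 12.6% as higher and 12.8% as lower. CCT7 had an FPKM of 127 and 124 in NC and 158 and 164 in SKA3-KD (log2 fold change 0.36, adjusted p = 0.0224, limma). CCT4 had 97.0 and 91.2 in NC and 125 and 118 in SKA3-KD (0.36, adjusted p = 0.0316, limma). CCT3 went from 151 and 147 in NC to 116 and 110 in SKA3-KD, or -0.40 as a log2 fold change (limma adjusted p = 0.0218). CCT5 went from 164 and 158 to 137 and 136, or -0.24 as a log2 fold change (limma adjusted p = 0.0493). The libraries of the 2 groups did not overlap in any of the 4. The list's median log2 fold change was 0.20, against 0.01 over all genes.

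Upstream of CCT, prefoldin hands unfolded tubulin to the chaperonin. None of its 6 subunits passed by limma (1 higher and 1 lower at an unadjusted p under 0.05, and 1 lower by limma voom), with a median log2 fold change of 0.05. The tubulin cofactors, which assemble the heterodimer after folding, had 6 genes tested and none past the threshold by limma (2 higher and 1 lower at an unadjusted p under 0.05, 1 and 1 by limma voom), with a median of 0.17. Of the gamma-, delta- and epsilon-tubulins, TUBG1, TUBG2, TUBD1 and TUBE1 were tested, and none passed by limma or by limma voom. TUBG2 had an unadjusted p under 0.05 (log2 fold change 0.29, adjusted p = 0.0767, limma). Beside these counts, 31.3% of all genes had such a p, and limma voom passed 12.6% as higher and 12.8% as lower.

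Of 12 genes of tubulin mRNA decay, 1 passed, as lower, which is close to the 6.11% of all genes. At an unadjusted p under 0.05 there were 1 higher and 2 lower, beside 31.3% of all genes. By limma voom there were 1 and 3, beside 12.6% and 12.8% of all genes. CNOT7 (log2 fold change -0.27, limma adjusted p = 0.0533) and CNOT11 (0.24, limma adjusted p = 0.0541) had opposite signs and did not pass. CNOT1, the scaffold of the CCR4-NOT complex, fell from an FPKM of 31.1 and 31.0 in NC to 22.1 and 22.3 in SKA3-KD, a log2 fold change of -0.47 ± 0.06 (SE, limma adjusted p = 0.0153). TTC5, the factor that recognises the nascent chain, was listed at 1.70 and 1.39 in NC and 1.30 and 0.961 in SKA3-KD (log2 fold change -0.26, adjusted p = 0.338, limma). The median of the list was -0.05.

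Enzymes that act on tubulin tails or on the acetylated lysine of alpha-tubulin had 24 of 28 genes with a row and 13 tested. There were 3 that rose, HDAC6, TTL and TTLL12, and none passed as lower by limma, beside 6.16% and 6.11% of all genes. At an unadjusted p under 0.05 there were 3 higher and 1 lower, close to the 31.3% of all genes. By limma voom there were also 3 and 1, beside 12.6% and 12.8% of all genes. HDAC6, the main tubulin deacetylase, had an FPKM of 3.60 and 4.31 in NC and 6.73 and 7.02 in SKA3-KD (log2 fold change 0.67 ± 0.10 SE, limma adjusted p = 0.0221). TTL, the ligase that puts a tyrosine back on the end of alpha-tubulin, had 8.23 and 8.42 in NC and 12.0 and 11.4 in SKA3-KD (0.44 ± 0.07 SE, limma adjusted p = 0.0231). TTLL12, a member of the same family, had 19.2 and 21.5 in NC and 26.3 and 29.5 in SKA3-KD (0.44 ± 0.09 SE, limma adjusted p = 0.0426). ATAT1, the acetyltransferase that opposes HDAC6, was at 2.22 and 1.95 in NC and 1.46 and 1.64 in SKA3-KD (log2 fold change -0.27, adjusted p = 0.211, limma). All 8 calls in these lists were lost when any 1 library was left out.

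**Figure D5:**
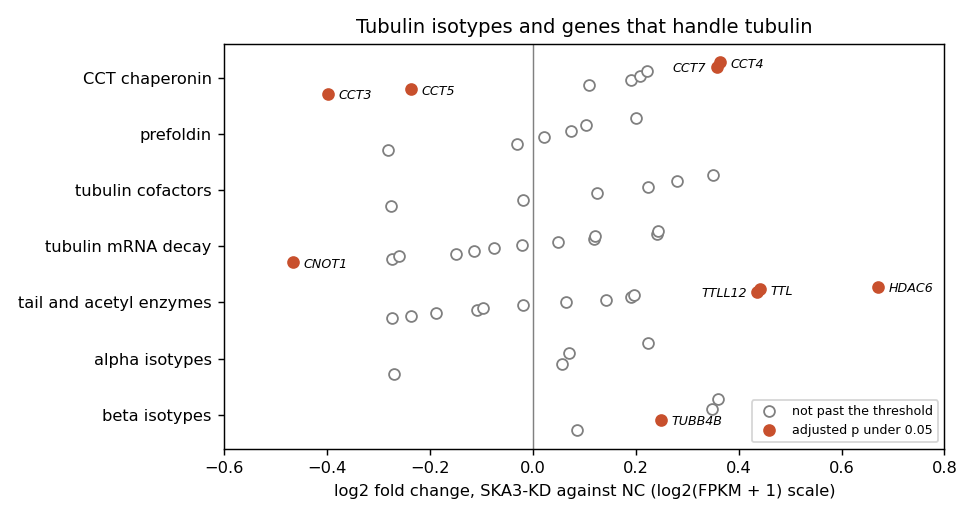
limma log2 fold change of SKA3-KD against NC for the tested isotypes and for the tested genes of 5 lists, with 1 point per gene and filled points for an adjusted p under 0.05. CCT3, CCT5 and CNOT1 lie to the left at -0.40, -0.24 and -0.47, and CCT4, CCT7, TTL, TTLL12 and HDAC6 to the right at 0.36 to 0.67, with TUBB4B at 0.25.

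The genes whose 4 values were most like those of TUBB4B were sought among 4665 others that averaged 10 FPKM or more, by the distance between their log2(FPKM + 1) values after each gene's own mean was taken off. CNOT11 was nearest, at a distance of 0.0066 log2 units over the 4 libraries, with an FPKM of 26.2 in both NC libraries and 30.8 and 31.6 in SKA3-KD. FKBP9 was next at 0.0130, with 28.8 and 29.1 in NC and 34.3 and 35.0 in SKA3-KD. RRP9 followed at 0.0147, with 27.0 in both NC libraries and 31.9 and 32.5 in SKA3-KD. With 4 libraries such likeness is a description of these values only.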

How the data were processed

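The authors deposited 1 table of FPKM values per gene for 4 libraries. The submitters' processing notes name Bowtie2 2.2.8, HISAT2, StringTie 1.3.1, Cuffdiff 2.1.1 and the build hg19, without the role of each. FPKM removes gene length and library size, not differences in composition.

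Symbols were taken by Ensembl identifier (27043 of 28729 genes). Positions, coding ends and shared windows came from GENCODE 29 (GRCh38), since the table carries no coordinates. Genes that averaged 1 FPKM or more entered limma 3.58.1 in R 4.3.3 on log2(FPKM + 1), with trended variances and Benjamini-Hochberg adjustment. Fold changes on this scale understate those of low genes. Recovered reads were whole within 0.01 for 61.3% of tested genes with GENCODE 29 lengths and for 99.98% with any whole length, a looser criterion. They entered limma voom as an alternative. The steps were tested on simulated data with changes larger than those of the isotypes, so that test does not cover changes of their size. Replicates differed beyond sampling noise, the chi-square of their reads being 3.48 (NC) and 3.41 (SKA3-KD) times its degrees of freedom.

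Genes named were the members, SKA3, the other alpha- and beta-tubulin genes, up to 4 list genes per direction by adjusted p, and the 3 genes most like the called member that rose most. Others (DCN, KRT17 and the markers, TUBG2, TTC5, CNOT7, CNOT11 and ATAT1) were chosen after their values were seen. Members, lists and the pairs set in ratios were chosen with earlier results of these data known. In the lists, 15 genes were not analysed here. Protein sequences were not used here, and the coding ends of the other alpha isotypes are not reported here. The alternatives tried were no filter, a pseudocount of 0.1, a minimum of 5 FPKM, median-of-ratios scaling, quantile normalization, no trend, the replicate number as a block, limma voom, and each library left out. Python 3.11.15 with pandas 2.3.3, scipy 1.17.1 and matplotlib 3.10.9 made the other steps.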

Additional observations from a re-analysis of the deposited data

How the results depend on the processing

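All 8 tested isotypes kept their direction under all 12 alternatives, and 80 of the 96 values also kept their side of the threshold. The 1551 calls over all genes became 129 without the filter, 693 without the trend and 3208 by limma voom, and 0 to 213 with 1 library left out (0 without NC 1, where 3113 genes had an unadjusted p under 0.05). The 1 isotype called became 0 without the filter and 0 without the trend (5 at an unadjusted p under 0.05 in each), 2 with quantile normalization, 4 with a minimum of 5 FPKM and 5 by limma voom, and 0 with any 1 library left out (1 to 5 at an unadjusted p under 0.05). The 8 calls in the lists of tubulin handling genes became 1 without the filter, 3 without the trend and 17 by limma voom, and 0 with any 1 library left out (13 to 19 at an unadjusted p under 0.05). The cause was not tested, except that a fit without 1 library has fewer samples and assumes that the lone sample of its group varies like the other group. The log2 ratio of the alpha sum, 0.07, lay between 0.04 and 0.10 with a library left out, and that of the beta sum, 0.18, between 0.17 and 0.19.

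Both groups number their replicates 1 and 2, but nothing in the labels says that a number is shared, and the deviations of same-numbered libraries correlated at 0.097 over 12645 genes and at 0.382 over the 4666 with a mean FPKM of at least 10. With the replicate number as a block, 1967 genes, 3 isotypes (TUBB4B, TUBB6 and TUBA1A) and 11 list genes passed. Depth limits TUBB2B and TUBB3, which stood on 4 to 33 reads a library.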
